A study of Mus musculus with 6 samples.

Results

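Mitosis genes, the set that lets a cell enter mitosis, build a spindle, part its chromosomes and divide, were followed in cultured lung fibroblasts of mice without Mmp19, a secreted matrix metalloproteinase, and of wild-type mice. The set held 37 genes, chosen by name for their roles in mitosis, with earlier results of these data known. All 37 had at least 1 named probe, 52 probes in all out of 55681 on the array. Of the 37 genes, 32 passed the filter on dim probes and were tested, among 12470 named genes tested.

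Total RNA was measured on one-colour microarrays, with 3 arrays for the genotype labelled Mmp19 knockout and 3 for wild type. Every animal, of both genotypes, had received 0.08 units of bleomycin into the trachea, an agent of lung injury and later fibrosis. Lung fibroblasts were taken on day 21 and their cultures were incubated for 72 hours. The labels give female mice aged 11 weeks for both groups, and name neither the strain, nor the knockout allele, nor how many animals stand behind 1 culture. The only comparison in the design is knockout against wild type, made to learn how Mmp19 bears on the fibroblasts' expression.

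Mitosis genes are transcribed in waves. In resting and early cycling cells many of them are held silent by a repressor complex named DREAM, and late in the cycle B-Myb, FOXM1 and the MuvB core switch them on. Cyclin B and CDK1 then drive entry into mitosis, the spindle checkpoint holds anaphase until every kinetochore is attached, and the anaphase-promoting complex with CDC20 releases the sister chromatids. In a culture, the RNA of these genes is widely used as a measure of how many cells are dividing. RNA came from whole cultures, so fewer dividing cells and less of these RNAs per dividing cell cannot be told apart.

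Many of these genes share short promoter elements, which are shown because the genes moved together from array to array. The cell cycle genes homology region (CHR), searched as TTTGAA and as the variant with the letters TTCGAA, is the element that MuvB complexes bind, and CCAAT is the box bound by NF-Y. The windows were 300 bases of RefSeq promoter sequence on assembly GRCm38.p6, 250 before the annotated start and 50 from it on, and both strands were searched. RefSeq held such a window for 31 of the 37 genes, 33 promoters in all, and none was found for Aurkb, Ccna2, Cdc25c, Foxm1, Kif20a and Tpx2. TTTGAA was in 23 of the 33 promoters, against 17.9% of 32851 mouse promoters, and TTCGAA in 3, against 1.56%. CCAAT was in 25, against 37.4%, and 17 held it 2 or more times, against 11.7%. A CHR together with CCAAT was in 21, against 7.53%. No match of one motif overlapped a match of another. The 120 bases just before the start are printed for 6 genes, written 5′ to 3′ along the gene, with each match on either strand in capitals. A CHR then reads TTTGAA on the gene's own strand and TTCAAA on the other, and a CCAAT box on the other strand reads ATTGG. The first 4 carry both elements, Ccnb1 carries CCAAT without the CHR letters, and Ndc80, whose values stood apart in what follows, carries neither in these bases.
Cdk1, chr10:69352913-69353032, minus strand: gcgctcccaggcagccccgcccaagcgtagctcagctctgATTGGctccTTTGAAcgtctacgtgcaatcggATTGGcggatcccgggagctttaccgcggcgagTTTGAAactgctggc
Top2a, chr11:99024190-99024309, minus strand: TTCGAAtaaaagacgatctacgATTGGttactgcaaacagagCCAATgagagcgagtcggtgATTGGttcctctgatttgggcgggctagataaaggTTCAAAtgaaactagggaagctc
Cdc20, chr4:118437344-118437463, minus strand: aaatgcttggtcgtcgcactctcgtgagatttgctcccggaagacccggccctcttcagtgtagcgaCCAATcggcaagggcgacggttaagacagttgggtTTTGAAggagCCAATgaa
Kif11, chr19:37376262-37376381, plus strand: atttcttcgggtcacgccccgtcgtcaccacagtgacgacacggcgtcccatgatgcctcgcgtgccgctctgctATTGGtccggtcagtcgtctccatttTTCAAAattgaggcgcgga
Ccnb1, chr13:100786487-100786606, minus strand: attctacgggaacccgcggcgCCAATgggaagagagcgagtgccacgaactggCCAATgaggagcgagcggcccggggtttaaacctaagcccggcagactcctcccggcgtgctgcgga
Ndc80, chr17:71526858-71526977, minus strand: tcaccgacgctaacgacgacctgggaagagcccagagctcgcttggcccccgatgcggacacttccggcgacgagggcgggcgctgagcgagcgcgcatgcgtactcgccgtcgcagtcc
Top2a, the topoisomerase that untangles sister chromatids, had the most matches, with 4 CHR and 6 CCAAT matches in its window. Ndc80 had 1 CHR match in its whole window and no CCAAT. In 5 promoters, against 50.9% of all, the whole window held neither motif: Birc5, Mad2l1, Nuf2, Nusap1 and Pttg1. These genes were all highest on wild-type replicate 1, and all but Pttg1 were lowest on wild-type replicate 2, as was common in the set. Whether the elements bear on the order of the arrays was not tested. These letters are matches and not binding sites, and a window without them says nothing about the factor.

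Before the comparison, the labels were checked. The Mmp19 probe was well above background on 0 of 3 knockout and 3 of 3 wild-type arrays, a difference of at least 5.33-fold (limma adjusted p = 0.016). Xist, which silences an X chromosome in female cells, was well above background on every knockout and on no wild-type array, and Y-linked Eif2s3y and Ddx3y on all 6, which goes against the female sex that the labels give. Of the other Y-linked genes checked, Kdm5d was so on no array and Uty on 1 wild-type array. Xist thus differed along with genotype, so sex and genotype cannot be told apart in the changes that follow. Wild-type replicate 2 stood apart, with correlations of 0.939 and 0.960 with its group, whose other arrays correlated at 0.984. The 75th percentile of the processed signal was 138, 328 and 246 on knockout replicates 1 to 3 and 190, 212 and 290 on wild-type replicates 1 to 3. Spots well above background were 43.1%, 52.5% and 51.1% on the knockout arrays and 48.7%, 44.6% and 54.5% on the wild-type arrays. Knockout replicate 1 and wild-type replicate 2 thus had the lowest detection in their groups. The part of these array differences in the order of arrays described below was not tested. All 15 fibroblast markers listed had a probe, and 13 were well above background on every array. Levels are given as log2 of the processed signal minus the array's 75th percentile, here called the scaled signal, and a change is knockout minus wild type on that scale, with its standard error (SE). Levels of different probes are not comparable with each other.

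Knockout and wild-type fibroblasts could not be separated by any of the 32 mitosis genes tested, and the wild-type cultures differed from each other more than the genotypes did. Wild-type replicates 1 and 3 had the highest signals for nearly the whole set, wild-type replicate 2 the lowest, and the 3 knockout arrays lay between them. None of the 32 genes was higher and none was lower at an adjusted p under 0.05 (limma, Benjamini-Hochberg over all probes), where 4.8% of all genes tested passed. None had an unadjusted p under 0.05, against 21.8% of all genes. In none of the 32 did the 2 groups separate without overlap, against 31% of genes. The changes ran from -0.91 for Cenpe to 0.98 for Ndc80, with a median of -0.15, beside 0.083 for all genes, and 22 of 32 were negative, against 43.7% of genes.

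**Figure D1:**
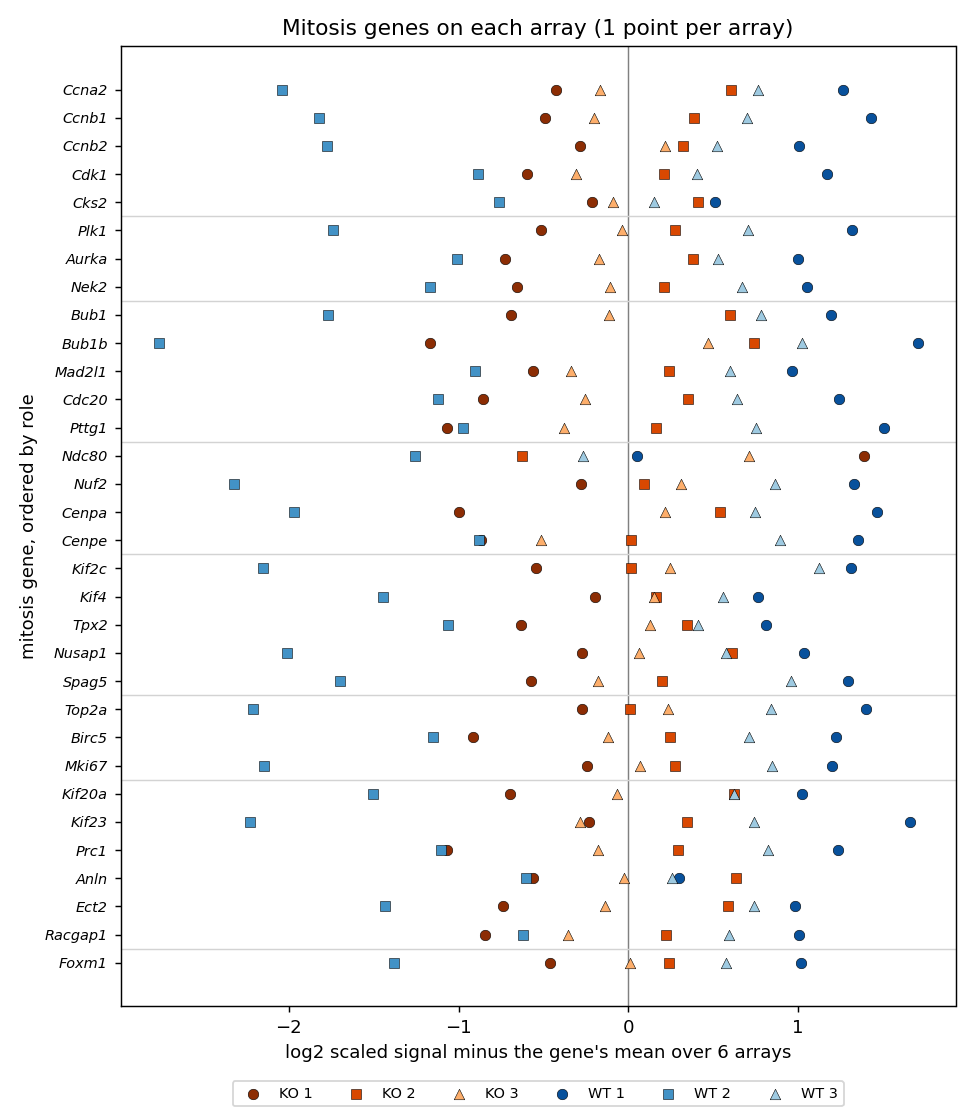
Scaled signal (log2) of each of the 32 tested mitosis genes on each array, drawn as the difference from the gene's mean over the 6 arrays, with 1 point per array, knockout (KO) in orange to brown and wild type (WT) in blue, and grey lines between the roles. Wild-type replicate 1 is at the right and wild-type replicate 2 at the left end for 30 of 32 genes each.

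Of the 5 tested genes for cyclins and CDK1 control, all but Cks2 had wild-type replicates 1 and 3 above and wild-type replicate 2 below every knockout array. Ccna2, cyclin A, which acts in S phase and early mitosis, read 0.97, 2.01 and 1.23 in knockout replicates 1 to 3 and 2.67, -0.64 and 2.17 in wild-type replicates 1 to 3. Its knockout values all lay between the wild-type extremes, and its change was 0.0046 with a 95% confidence interval from -1.98 to 1.99. Ccnb1, cyclin B1, the partner that drives CDK1 into mitosis, read 2.15, 3.03 and 2.44 in the knockout and 4.07, 0.82 and 3.34 in the wild type. Here too 2 wild-type arrays were above every knockout array and 1 was below them all. Cdk1, the mitotic kinase itself, read 0.59, 1.39 and 0.87 in the knockout and 2.35, 0.30 and 1.58 in the wild type, a change of -0.46 (SE 0.52, limma adjusted p = 0.653). Ccnb2, the second B-type cyclin, changed by 0.17 and Cks2, a small CDK-binding subunit, by 0.069. The interval of Cks2, -0.80 to 0.94, was the narrowest in the set.

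Of the mitotic kinases, Plk1, which matures centrosomes and promotes mitotic entry, read 0.63, 1.42 and 1.10 in the knockout and 2.46, -0.60 and 1.84 in the wild type. Its signal on wild-type replicate 2 was 8.31-fold below that on wild-type replicate 1, while the change between genotypes was -0.19 (SE 0.75). Nek2, a centrosome kinase, read -0.83, 0.039 and -0.28 in the knockout and 0.88, -1.34 and 0.50 in the wild type, a change of -0.37 (SE 0.58, limma adjusted p = 0.761). Aurka, the kinase of the spindle poles, had the same order of arrays and a change of -0.35.

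Of the 5 tested genes of the spindle checkpoint and of anaphase control, 4 had a negative change and none passed the test. Pttg1, securin, which guards the sister chromatids until anaphase, read 1.70, 2.93 and 2.39 in the knockout and 4.27, 1.80 and 3.52 in the wild type. Its change was -0.86 (SE 0.65, limma adjusted p = 0.487), and its lowest array was knockout replicate 1, an exception that it shared with Racgap1. Cdc20, the activator that turns the anaphase-promoting complex on securin, read 2.27, 3.48 and 2.88 against 4.37, 2.01 and 3.77, a change of -0.51 (SE 0.63, limma adjusted p = 0.684). Mad2l1, the checkpoint protein MAD2, read 1.53, 2.33 and 1.75 against 3.05, 1.18 and 2.69, a change of -0.44 (SE 0.50, limma adjusted p = 0.658). A further probe of Mad2l1 read 0.14, -1.70 and -0.89 against 0.14, -1.83 and -0.63, with another order of arrays, so its probes disagreed on which arrays were high. Bub1, the checkpoint kinase, changed by -0.14, and Bub1b, the checkpoint protein BUBR1, by 0.025. Bub1b was the most variable of the 32, with an SD of 2.41 among wild-type arrays, but its probe was not well above background on wild-type replicate 2.

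The kinetochore genes held both ends of the range. Cenpe, the kinesin that moves chromosomes to the spindle's middle, read 2.22, 3.10 and 2.57 in the knockout and 4.43, 2.20 and 3.98 in the wild type. All of its knockout values were below wild-type replicates 1 and 3, and wild-type replicate 2 was level with the lowest of them, giving a change of -0.91 (SE 0.58, limma adjusted p = 0.415). Ndc80, the kinetochore subunit that grips microtubules, read 1.61, -0.40 and 0.94 in the knockout and 0.28, -1.03 and -0.043 in the wild type, a change of 0.98 (SE 0.57, limma adjusted p = 0.372). Its highest array was knockout replicate 1, which was among the lower arrays for the rest of the set. Nuf2, which pairs with NDC80 in the same complex, did not share that order. Its signal read -0.31, 0.064 and 0.28 in the knockout and 1.30, -2.35 and 0.84 in the wild type, a change of 0.083 (SE 0.90). Cenpa, the histone H3 variant that marks centromeres, changed by -0.16 (SE 0.89).

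Among the spindle motors and microtubule binders, the 5 genes tested changed by -0.37 (Spag5, astrin, a spindle and kinetochore protein) to 0.27 (Nusap1, which bundles spindle microtubules). Kif2c, a kinesin that takes microtubules apart at centromeres, changed by -0.19, Kif4, a chromosome-bound kinesin, by 0.081, and Tpx2, which activates Aurora A on the spindle, by -0.11. All 5 were lowest on wild-type replicate 2 and highest on wild-type replicate 1. The Kif2c probe described above was not well above background on wild-type replicate 2. A further probe of Kif2c gave -1.05 (SE 0.49, limma adjusted p = 0.276). It was well above background on 3 wild-type and 2 knockout arrays, and was lowest on knockout replicate 1 (-3.05), with wild-type replicate 2 at -2.05.

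Of the genes of chromosome structure and the passenger complex, Top2a read 0.53, 0.81 and 1.04 in the knockout and 2.20, -1.41 and 1.64 in the wild type. Mki67, the Ki-67 protein that coats mitotic chromosomes and is a common marker of dividing cells, read 2.35, 2.87 and 2.66 in the knockout and 3.79, 0.45 and 3.44 in the wild type. In both genes the knockout arrays were close together, with SDs of 0.254 and 0.260 (n = 3), and the wild-type arrays far apart, with SDs of 1.94 and 1.84 (n = 3). Birc5, survivin, a member of the chromosomal passenger complex, read 3.31, 4.47 and 4.11 against 5.45, 3.08 and 4.93, a change of -0.52 (SE 0.63, limma adjusted p = 0.676).

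The central spindle and cytokinesis genes included Racgap1 and Anln, which departed from the common lowest or highest array. Racgap1, a subunit of centralspindlin, read 0.85, 1.91 and 1.34 in the knockout and 2.70, 1.07 and 2.28 in the wild type, a change of -0.65 (SE 0.47, limma adjusted p = 0.469). Prc1, which bundles the central spindle, read 2.02, 3.38 and 2.90 against 4.32, 1.98 and 3.91, a change of -0.64 (SE 0.65, limma adjusted p = 0.616). Knockout replicate 1 was low in both, below or near the level of wild-type replicate 2. Anln, anillin, a scaffold of the contractile ring, read 2.36, 3.56 and 2.90 in the knockout and 3.22, 2.32 and 3.18 in the wild type. Its arrays differed least among the wild types (SD 0.511, n = 3), its highest array was knockout replicate 2, and its change of 0.031 had an interval from -0.89 to 0.95. Kif20a, a kinesin of the central spindle, changed by -0.091, Kif23, the motor subunit of centralspindlin, by -0.11, and Ect2, the exchange factor that activates RhoA for furrowing, by -0.19. Foxm1, the transcription factor that drives many of these genes, read -0.92, -0.21 and -0.44 against 0.56, -1.83 and 0.12, and its change was -0.14 (SE 0.61).

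A missed threshold does not show that the genotypes were alike, and the intervals say how far the values reach. The 95% confidence interval of the change held 0 for all 32 genes, and for 20 of them it held both -1 and 1, so that a 2-fold change in either direction lay within it. The median width of the intervals was 3.15 on the log2 scale, against 1.27 for all genes. Adjusted p (limma) ran from 0.372 for Ndc80 to 0.998 for Ccna2.

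The 5 genes left out by the filter were dim. Aurkb, the kinase of the passenger complex, was not well above background on any array, and Cenpf, a kinetochore protein, only on wild-type replicate 3. Ttk, the checkpoint kinase MPS1, was well above background on knockout replicate 3 and wild-type replicates 1 and 3. Cdc25c, the phosphatase that activates CDK1, and Kif11, the kinesin that separates the spindle poles, were each so on knockout replicates 2 and 3 and wild-type replicates 1 and 3. None of the 5 was well above background on wild-type replicate 2, where Kif11 had no value, or on knockout replicate 1.

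The order of the arrays was nearly the same from gene to gene. Wild-type replicate 2 was the lowest of the 6 arrays for 30 of 32 genes, against 36.2% of all genes, with Pttg1 and Racgap1 as the exceptions. Wild-type replicate 1 was the highest for 30, against 21.5% of all genes, with Ndc80 and Anln as the exceptions. Wild-type replicate 1 was above wild-type replicate 3 for all 32, against 45.3%. Within the knockout the order was as regular: replicate 1 was the lowest of the 3 for 30 genes, against 49.4%, and replicate 2 the highest for 28, against 55.7%. For 25 genes, against 7.32% of all genes, both wild-type replicates 1 and 3 were above and wild-type replicate 2 below every knockout array. The median deviation from a gene's mean was -0.57, 0.28 and -0.098 on knockout replicates 1 to 3 and 1.19, -1.44 and 0.70 on wild-type replicates 1 to 3, where all genes had medians between -0.18 and 0.16.

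The distance between wild-type cultures was several-fold. Over the 29 genes whose probe was well above background on wild-type replicate 2 (all but Bub1b, Kif23 and Kif2c), that array was below wild-type replicate 1 by 1.87-fold (Anln) to 12.6-fold (Nuf2), with a median of 5.27-fold. It was below wild-type replicate 3 by 1.82-fold (Anln) to 9.12-fold (Nuf2), with a median of 3.88-fold. Of all 32 genes, 29 were at least 1 log2 unit below both other wild-type arrays, against 10.8% of all genes, and 17 were at least 2 units below, against 2.50%. Every role, from the cyclins to cytokinesis, was lower on that array, with median shortfalls against the mean of the other 2 wild-type arrays of 4.09-fold (kinases) to 8.97-fold (chromosome structure and passenger complex) over the groups of 3 or more genes.

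Each slide carried 1 array of each genotype, with the same replicate number, so the genotypes could also be set side by side within a slide. On slide 1 the knockout was lower for 31 of 32 genes, against 50.5% of all genes, with a median difference of -1.72. On slide 2 it was higher for all 32, against 68.9%, with a median of 1.76, beside 0.33 for all genes. On slide 3 it was again lower for 31, against 52.3%, with a median of -0.76. The direction of the genotype difference therefore turned with the slide for every gene but Ndc80. Ndc80 was higher in the knockout on each slide, by 1.33, 0.63 and 0.98, and with slide as a block its change of 0.98 had an SE of 0.23 (limma adjusted p = 0.120), which was the smallest adjusted p of the set in that fit and did not pass.

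**Figure D2:**
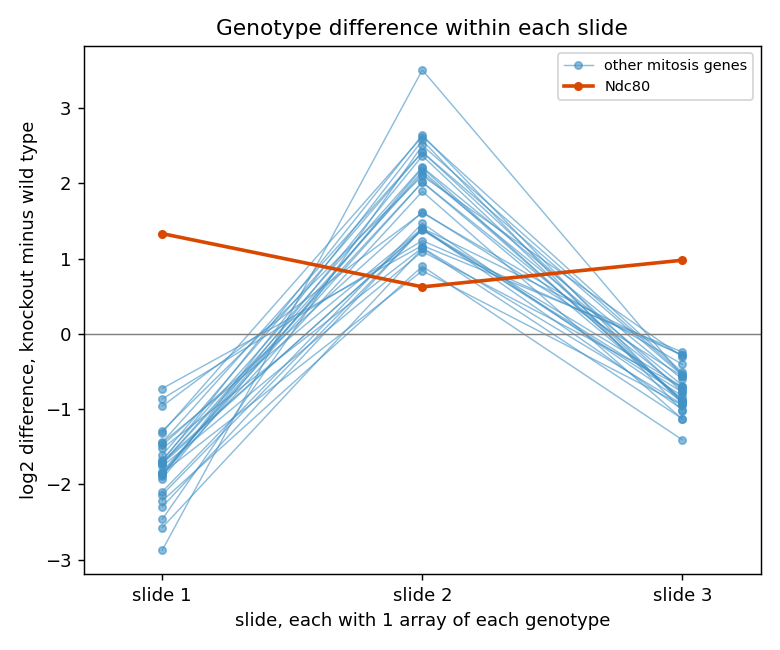
Difference in scaled signal (log2), knockout minus wild type, within each of the 3 slides, with 1 line per tested mitosis gene. The 31 blue lines are below 0 on slides 1 and 3 and above 0 on slide 2, and the orange line of Ndc80 is above 0 on all 3.

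Spread between cultures was set against genotype gene by gene. The median SD was 0.447 among knockout arrays and 1.30 among wild-type arrays (n = 3 each), beside 0.254 and 0.317 for all genes. The wild-type SD was the larger for 30 of 32 genes, against 59.4% of all genes, and exceeded 1 for 26, against 7.94%. The size of the genotype difference was under the pooled SD of the replicates for 30 genes, against 47.9%. When each gene's sum of squares over the 6 arrays was divided, a median of 0.916% lay between genotypes, 20.3% between slides and 73.6% in the remainder. Over all genes the medians were 29.6%, 26.9% and 25.7%. Genotype took its greatest share in Ndc80, at 32.2%, with 65.0% between slides and 2.80% in the remainder, so that this gene varied mostly from slide to slide and alike in both genotypes. Cenpe followed with 28.1% between genotypes and 59.2% in the remainder.

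**Figure D3:**
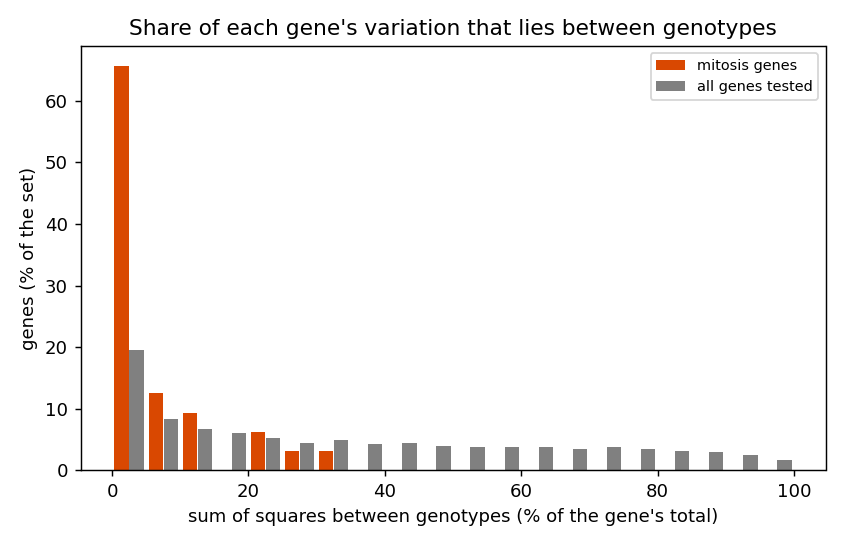
Share of each gene's sum of squares over the 6 arrays that lay between genotypes (percent, in steps of 5), as the percent of the 32 mitosis genes (orange) and of the 12438 genes with a value on every array (grey). The mitosis genes crowd at the left, with a median of 0.916% and none above 32.2%, while all genes reach up to 99.7% with a median of 29.6%.

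Wild-type replicate 2 weighed on these results, so the values without it are given beside them. That array was the lowest of the 6 for 30 of 32 genes, so leaving it out lowers their change by construction. The genes also moved together, so the counts that follow are not separate pieces of support. With that array left out, 35 mitosis genes were fitted, 34 of them were lower in the knockout, against 50.5% of genes, and the median change was -1.04, or 2.06-fold lower. An unadjusted p under 0.05 with a lower knockout was reached by 25 of the 35, against 14.2% of genes. After adjustment 1 gene passed, against 4.47% of genes: Cenpe fell by 1.58 (SE 0.32, limma adjusted p = 0.0432), or 2.98-fold. Next came Kif2c with -1.31 (limma adjusted p = 0.0516), Spag5 with -1.31 (0.0522) and Top2a with -1.13 (0.0651), which did not pass. The 3 genes that entered this fit changed by -1.01 (Cdc25c), -1.03 (Kif11) and -1.54 (Ttk). They passed the filter only through wild-type replicates 1 and 3 and not through the knockout, so the filter favoured a negative change. Their values, and their part in the counts of 35, are therefore no support for a lower knockout. Ndc80 alone was positive, at 0.60 (SE 0.58). Without both arrays of slide 2, a choice made after the values were seen, Cenpe (limma adjusted p = 0.0354) and Spag5 (0.0459) were lower and the median was -1.24. The other wild-type arrays weighed on the sign as well, since the median was 0.37 when wild-type replicate 1 was left out, 0.14 when wild-type replicate 3 was, and 0.083 when knockout replicate 1 was. Neither direction is therefore shown by all 6 arrays.

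**Figure D4:**
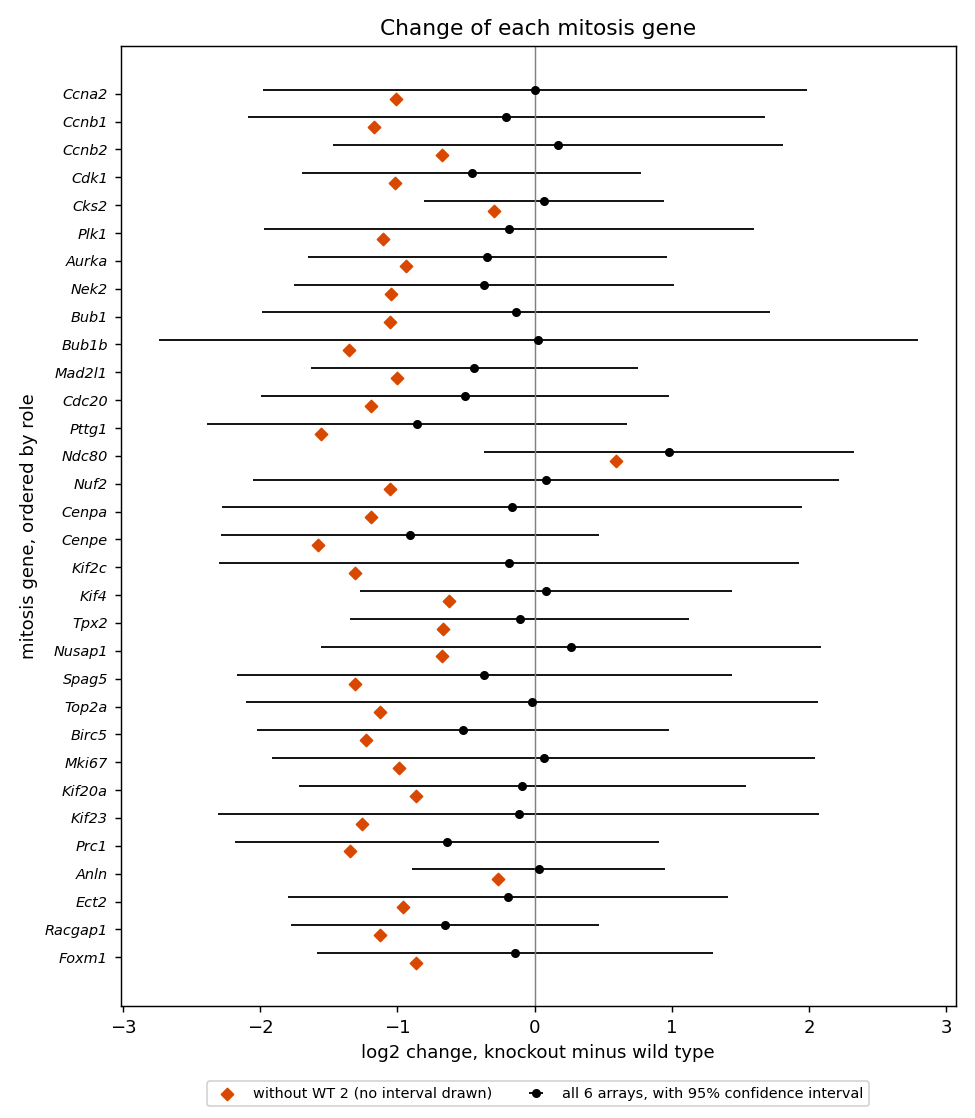
Change in scaled signal (log2), knockout minus wild type, of each tested mitosis gene over all 6 arrays (black points, with 95% confidence intervals) and without wild-type replicate 2 (orange diamonds, with no interval drawn). All 32 intervals cross 0, and leaving the array out moves every gene drawn to the left. The median without it was -1.04 over the 35 genes fitted, which include Cdc25c, Kif11 and Ttk, not drawn here.

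Other lists of cell cycle genes were read in the same way. A list of 78 further mitosis genes, of which 67 were tested, had 0 higher and 0 lower, a median change of -0.28 and wild-type replicate 2 lowest in 49. The smallest p values there belonged to 2 kinetochore genes with another order of arrays. Zwint, an outer kinetochore protein, read 3.69, 3.90 and 3.82 in the knockout and 4.55, 4.60 and 4.88 in the wild type, so its groups did not overlap, and it changed by -0.87 (SE 0.20, limma adjusted p = 0.0600). Cenpi, a protein of the inner kinetochore, read -0.84, -0.13 and -0.90 against 0.68, 1.34 and 0.11, and changed by -1.33 (SE 0.37, limma adjusted p = 0.103). In both genes wild-type replicate 2 was not low. Without wild-type replicate 2, 9 of 75 genes of that list were lower, against 4.47% of genes, and the median was -0.89. The limits given above for leaving that array out hold here too.

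Among the factors that govern mitosis genes, 2 of 22 passed the test, where 4.8% of all genes tested passed in either direction. Of these 22 tested genes for B-Myb, MuvB, pocket proteins, E2F and NF-Y factors, 0 were higher and 2 were lower. E2f2, an activating E2F, read -2.35, -0.63 and -0.93 in the knockout and 1.12, 1.30 and 0.61 in the wild type, and fell by 2.32 (SE 0.47, limma adjusted p = 0.0436). Rbbp4, the histone-binding subunit of MuvB, read 3.58, 3.87 and 3.73 against 4.63, 4.84 and 4.73, and fell by 1.01 (SE 0.19, limma adjusted p = 0.0381). Neither had its low value on wild-type replicate 2. Mybl2, which encodes B-Myb and is itself switched on in cycling cells, read 0.17, 0.11 and -0.031 against 1.49, -0.76 and 1.15. Its wild-type arrays stood in the order of the mitosis genes and its knockout arrays did not. Of the anaphase-promoting complex, 13 subunit and activator genes of 15 were tested, with 0 higher and 0 lower, and the smallest p values were those of Anapc16 (0.55, SE 0.19, limma adjusted p = 0.158) and Anapc11 (0.62, SE 0.23, limma adjusted p = 0.182).

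Genes of DNA replication and G1/S, 36 tested of 42, had 0 higher and 0 lower, a median of -0.39 and wild-type replicate 2 lowest in 28, with Mcm10 at -1.28 (SE 0.51, limma adjusted p = 0.217) and Fen1 at -0.58 (SE 0.32, limma adjusted p = 0.350) smallest in p. Of their sums of squares a median of 11.1% lay between genotypes and 57.9% in the remainder. With wild-type replicate 2 left out, 9 of 39 of them were lower, against 4.47% of genes, and their median was -0.82, under the same limits. Cyclin kinase inhibitors and p53 targets, 20 tested of 20, had 1 higher, Gadd45a, a stress-response gene (1.30, SE 0.25, limma adjusted p = 0.0380), and 0 lower. That is near the 4.8% of all genes tested that passed in either direction. The medians of this list by array stayed between -0.42 and 0.39, where those of the mitosis genes ran from -1.44 to 1.19.

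**Figure D5:**
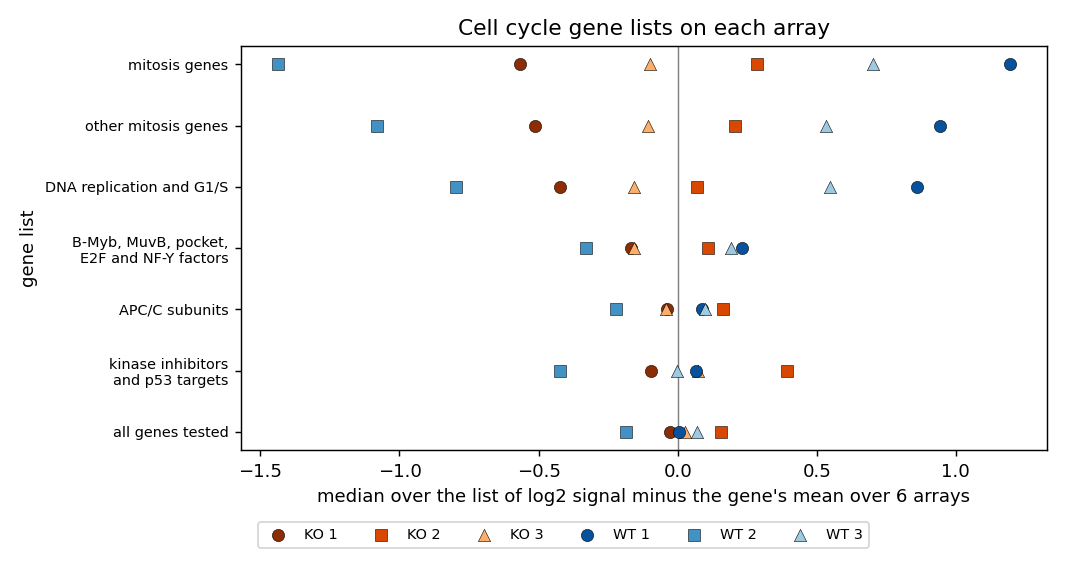
Median over each list, on each array, of the scaled signal (log2) minus the gene's mean over the 6 arrays, for the 32 mitosis genes, the other cell cycle lists and all genes tested, with 1 point per array and the colours of the gene-by-gene plot. Wild-type replicates 1 and 2 are farthest apart for the mitosis genes, at 1.19 and -1.44, and close together for the subunits of the anaphase-promoting complex.

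Markers of other cells also differed between arrays. Mesothelial markers, of which 11 of 12 had a probe, were higher in the knockout for 5 genes, where 412 of 12470 genes tested were higher. Upk3b, Lrrn4 and Bnc1 changed by 4.75, 4.26 and 4.18 (SE 0.90, 0.87 and 0.27, limma adjusted p = 0.0378, 0.0454 and 0.00257). Krt8 (-0.023) and Krt19 (-0.28) of the same list had negative changes. The log2 of the summed scaled signal of the 11 markers was 5.53, 7.13 and 6.56 on the knockout arrays. It was 1.91, 4.36 and 3.67 on wild-type replicates 1 to 3. Well above background were 11 of the 11 on each knockout array, against 6, 9 and 11 on the wild-type arrays. Among the wild-type arrays the order of this sum, lowest on replicate 1 and highest on replicate 2, was the reverse of that of the mitosis genes. Single markers departed from it: among these arrays Krt8 was highest on replicate 1, and Bnc1 and Cldn15 on replicate 3. Among the knockout arrays the order of the sum was that of the mitosis genes, lowest on replicate 1 and highest on replicate 2, but Krt8 and Bnc1 were highest on replicate 1. Of the 15 fibroblast markers, 2 were higher in the knockout, beside the same 412 of 12470 genes. These were Col1a1 by 1.47 (SE 0.26, limma adjusted p = 0.0307) and Col1a2 by 1.25 (SE 0.25, limma adjusted p = 0.0415). Dcn (-0.75), Pdpn (-0.45) and Vim (-0.11) of that list had negative changes. Wild-type replicate 2 was the lowest array for 3 of the 15 fibroblast markers, Pdgfra, Dcn and Lum. Dcn read 8.50, 2.74 and 7.85 on wild-type replicates 1 to 3. Lum read -0.43, -4.65 and -1.08 there, and was not well above background on replicate 2. Over the 15 markers, the median difference of wild-type replicate 2 from the mean of the other wild-type arrays was 0.45, where that of the mitosis genes was -2.23. None of the tested markers of lung epithelium (8 genes), leukocytes (7) or endothelium (5) passed the threshold. Smallest in p were Lamp3 (-0.55) and Krt5 (-0.34) of the epithelial, Lyz2 (1.02) and Csf1r (0.66) of the leukocyte, and Pecam1 (0.50) and Kdr (-0.19) of the endothelial markers. Well above background on all 6 arrays were 7 of the 12 epithelial markers, Sftpc and Scgb1a1 among them, 6 of the 15 leukocyte markers with a probe, such as Itgam and Csf1r, and 5 of the 9 endothelial markers, such as Pecam1 and Cdh5. On no array were Epcam, Nkx2-1 and Cldn18 of the epithelial markers, some of the leukocyte markers, such as Mrc1 and Fcgr1, and Tek, Tie1, Emcn and Erg of the endothelial ones. Ptprc, which encodes CD45, was so on 1 array of each group. The part of these cells, and of wild-type replicate 2's distance from its group, in the values of the mitosis genes was not tested.

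Of the 6 mitosis genes with several tested probes (Birc5, Ccnb1, Kif2c, Mad2l1, Mki67 and Racgap1), 4 had probes of 1 sign only, and 3 had wild-type replicate 2 lowest on every probe. Racgap1's further probe gave -0.58 (SE 0.41), close to the value above, and there wild-type replicate 2 was the lowest array.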

How the data were processed

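Total RNA of 3 Mmp19 knockout and 3 wild-type fibroblast cultures was labelled with Cy3 and hybridised to Agilent one-colour arrays, per the labels' protocols. Sample titles give the group and replicate number, and independent experiments are described by the submitters. Where cultures were not separate, p-values measure only the spread between these samples.

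The authors deposited scanner tables of spot intensities. Agilent Feature Extraction 10.7.3.1, per the file headers, gave the background-subtracted processed intensity and the flags, while the submitters' processing notes name version 9.1. A further deposited table holds the authors' log2 values, with no normalization named in the sources used here. Its scale is that of log2 signal, its centring stays unknown, and its columns had medians of 5.51 to 5.76. The correlation was at least 0.996 with the column's own array and at most 0.989 with the others. It was used as an alternative only.

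Control spots and outlier flags were left out and spots of a probe averaged (59305 spots, 55681 probes). Each array's 75th percentile was subtracted from the log2 processed intensity. The filter kept 24214 probes, those flagged well above background in every array of either group. Their two-sided comparison used limma 3.58.1 (lmFit, eBayes; R 4.3.3), Benjamini-Hochberg adjustment over all of them and a threshold of 0.05. Intervals are 95% intervals of the moderated fit. Probes were named by RefSeq accession through a table of assembly GRCm38.p6, which matched 26413 probes (47.4%); the array design names build mm9, and promoter sequences are RefSeq's on GRCm38.p6. The tested probe of highest mean stood for a gene (12470 genes, 12438 with a value on every array). For Mmp19 and other probes dim in a whole group, a fold is "at least" a bound: the bright group's mean over the dim group's, where each dim array takes the lowest signal well above background, or the probe's own if that is higher. No spot was saturated. The number of arrays limits precision. The fit was tested on simulated data.

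The mitosis genes and the lists were chosen with earlier results of these data known. Named genes are the 10 mitosis genes of smallest p in full, the others by their values, and from each other list up to 3 past the threshold or the 2 of smallest p. Beyond that rule, Mybl2, the sex-linked genes, further fibroblast and mesothelial markers, and the markers given only by their detection were named after their values were seen. Each slide holds 1 array of each genotype with the same replicate number. The labels do not say that a number marks an animal or a day, so the main fit had no block, and the block was run as an alternative. Over all probes tested, same-numbered arrays deviated from their group means with correlations of 0.096, -0.021 and 0.210. These do not show that a block is without effect for a single gene, as Ndc80 shows above. Alternatives were the replicate block, normexp (offset 50) on the median signal, quantile normalization, scaling to the median of detected probes, other filters, the authors' table, a trended robust prior, the mean over a gene's probes and leaving out arrays.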

Additional observations from a re-analysis of the deposited data

How the results depend on the processing

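Of the 32 mitosis genes, 0 were higher in the knockout under every alternative run. None was lower under any alternative with all 6 arrays, and 0 to 2 were lower when arrays were left out. The median change, -0.15, ran from -1.24 (35 genes fitted) to 0.37 when arrays were left out. It ran from -0.32 (the authors' table) to -0.14 (mean over a gene's probes) under the other alternatives. The signs of uncalled genes were less stable: 15 of 32 turned without wild-type replicate 1, 12 without wild-type replicate 3, 9 without wild-type replicate 2 or knockout replicate 1, and 7 in the authors' table. That table moved the median of all genes from 0.083 to -0.045, so the median of -0.32 is to be read against that shift.

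Over all probes, 1124 passed the threshold. With the replicate block, which is the slide block, 385 passed and the block changed no call among the mitosis genes; Ndc80 was the only mitosis gene with an unadjusted p under 0.05. With normexp 633 passed, with probes well above background on all 6 arrays 650, with no filter on dim probes 113, and 108 to 1913 with arrays left out. The cause of these differences was not tested. Probes near background on wild-type replicate 2 (Bub1b, Kif23, Kif2c) give only a rough level there, and the 5 dim genes had no test over all arrays.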

Other observations

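Ska3, a gene of the spindle and kinetochore complex on the list of further mitosis genes, read 7.94, -0.81 and -1.62 on knockout replicates 1 to 3 and -0.73, -2.40 and -0.85 on wild-type replicates 1 to 3, so that 1 array held a value far from the other 5 (change 3.16, SE 2.37, limma adjusted p = 0.486). E2f8, an E2F that represses transcription late in the cycle, read -0.91, -0.45 and -1.04 in the knockout and 0.61, -2.60 and 0.24 in the wild type. Its wild-type arrays stood in the order of the mitosis genes, but its lowest knockout array was replicate 3. Both genes were singled out after their values were seen.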
